A study of Arabidopsis thaliana with 12 samples.

Results

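The vehicle-treated control of a study of acyl-CoA effects on Arabidopsis thaliana was described here on its own, without any treated sample. Its members were the 3 libraries labelled Control, of 12 libraries in the series, and they were chosen by that label. Each library came from a pool of 80 wild-type plants at BBCH stage 1.04, grown for 14 days in liquid Murashige and Skoog medium with 0.5% sucrose under 16 h of light at 21 °C and 8 h of dark at 18 °C. The seedlings had been exposed for 90 min to 0.01% Pluronic F68, a non-ionic surfactant used as the carrier, and were then frozen whole. The controls therefore carried the surfactant and the handling, and no seedlings without them were analysed here. The labels gave neither the accession of the wild type nor the hour of harvest, and each replicate pool ran in its own sequencing lane (1, 2 and 3), so lane and replicate cannot be told apart.

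The messenger RNA of a green seedling is a mixture from leaves, hypocotyl and roots. Leaf cells are known for large amounts of transcript for the nuclear-encoded proteins of photosynthesis, which are made in the cytosol and imported into the chloroplast, while growing tissues in both shoot and root are rich in transcripts for ribosomal proteins and translation factors. Roots add transcripts for root hairs, for the Casparian strip and suberin of the endodermis, and for nutrient transport.

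Levels were computed as TPM, that is, exon reads per base of exon length scaled to the same sum in each library, so that genes of different length can be compared, and CPM are exon reads scaled in the same way without the length. The libraries held 6126277, 4830909 and 1303225 exon reads in replicates 1, 2 and 3, a 4.70-fold range, so replicate 3 has the largest counting error. A floor of 3 reads corresponded to 0.490, 0.621 and 2.3 CPM. Across 21479 genes with a read, log2(CPM + 1) had a Pearson correlation of 0.978 between replicates 1 and 2, 0.965 between 1 and 3, and 0.960 between 2 and 3. These points are genes of the same libraries, not independent samples. Reads over exon junctions were 32.7%, 33.4% and 33.4% of exon reads. Genes encoded in the mitochondrion received 181, 202 and 49 exon reads, and chloroplast-encoded genes were not analysed here. Outside the exon counts, the mitochondrial genes ATMG00020 and ATMG01390, listed with no exon, received 816, 783 and 321 reads and 443, 465 and 142 reads.

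The most abundant transcript of the seedlings was LHCB1.3 (AT1G29930), a chlorophyll a/b-binding protein of the light-harvesting antenna of photosystem II. It reached 8354, 5643 and 9479 TPM in replicates 1, 2 and 3. It belongs to a family of 5 LHCB1 genes, 3 of which lie side by side on chromosome 1, so its sequence bears on how well the copies could be told apart. The coding sequences of LHCB1.3, LHCB1.2 and LHCB1.1 are each 804 bases long and differ at 47 positions. The coding sequence of LHCB1.3 is 96.4% identical to that of LHCB1.2, 96.1% to LHCB1.1, 89.3% to LHCB1.5 and 86.8% to LHCB1.4. Below is the stretch of 60 coding bases in which they differ most, coding positions 25 to 84 in the RefSeq annotation of TAIR10.1, with the 8 positions that differ in capitals.
LHCB1.3, chr1:10478095-10478154, plus strand: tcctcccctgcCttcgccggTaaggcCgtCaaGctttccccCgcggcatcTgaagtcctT
LHCB1.2, chr1:10473163-10473222, minus strand: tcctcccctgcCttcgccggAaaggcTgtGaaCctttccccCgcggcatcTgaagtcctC
LHCB1.1, chr1:10475809-10475868, minus strand: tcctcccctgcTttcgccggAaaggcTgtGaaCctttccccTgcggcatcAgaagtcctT
The longest coding stretch with no difference among the 3 genes was 62 bases, at coding positions 640 to 701, and reads were 50 bases per mate. In pairs the longest identical stretch was greater: 119 bases for LHCB1.3 and LHCB1.1, 116 for LHCB1.2 and LHCB1.1, and 74 for LHCB1.3 and LHCB1.2. Of the 50-base words of the exons, 79.8% occurred only once in the genome for LHCB1.3, 87.1% for LHCB1.2 and 77.0% for LHCB1.1. The deposited unique and total exon reads were equal in every cell, so reads that could not be placed in 1 gene are not in these counts, and the levels of such families leave them out.

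Upstream windows are shown for 6 genes that carry the results below: the most abundant and the most variable light-harvesting gene, a pair of abundant ribosomal protein genes and a pair of heat-inducible genes that stood apart in 1 library. Each window runs from base -250 to base -1 before the gene start of the deposited table, in the direction of transcription, with sequence read from RefSeq TAIR10.1. Capitals mark the I-box (GATAAG, either strand) and the TATA box (TATAAA, gene strand, between -60 and -15) in the light-harvesting genes, the site II element (TGGGCC, either strand) and the telo box (AAACCCTA, either strand) in the ribosomal genes, and the heat shock element in its short form of a pair of blocks (GAANNTTC, which reads alike on both strands) in the heat-inducible genes.
LHCB1.3, chr1:10477755-10478004, plus strand: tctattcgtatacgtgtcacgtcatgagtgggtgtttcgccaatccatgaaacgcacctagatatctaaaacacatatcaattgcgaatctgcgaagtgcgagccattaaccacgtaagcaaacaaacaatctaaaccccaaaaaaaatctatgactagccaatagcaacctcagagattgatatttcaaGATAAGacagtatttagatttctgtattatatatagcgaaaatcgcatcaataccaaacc
LHCB1.4, chr2:14524506-14524755, plus strand: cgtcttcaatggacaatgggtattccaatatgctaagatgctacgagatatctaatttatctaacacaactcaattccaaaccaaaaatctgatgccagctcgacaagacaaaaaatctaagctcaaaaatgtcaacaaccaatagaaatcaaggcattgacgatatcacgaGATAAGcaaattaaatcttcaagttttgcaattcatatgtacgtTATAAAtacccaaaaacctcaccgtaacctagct
AT4G27090, chr4:13595253-13595502, minus strand: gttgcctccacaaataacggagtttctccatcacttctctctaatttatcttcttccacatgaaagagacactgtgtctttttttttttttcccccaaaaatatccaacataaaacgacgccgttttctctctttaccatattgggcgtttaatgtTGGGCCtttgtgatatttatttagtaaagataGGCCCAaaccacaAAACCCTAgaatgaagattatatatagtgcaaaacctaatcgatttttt
RPS8A, chr5:6853067-6853316, minus strand: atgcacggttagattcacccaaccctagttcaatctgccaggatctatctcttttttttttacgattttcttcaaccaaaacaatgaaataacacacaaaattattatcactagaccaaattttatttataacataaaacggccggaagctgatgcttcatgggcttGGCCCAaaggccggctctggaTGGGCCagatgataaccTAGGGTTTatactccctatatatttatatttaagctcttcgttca
HSP90.1, chr5:21352149-21352398, plus strand: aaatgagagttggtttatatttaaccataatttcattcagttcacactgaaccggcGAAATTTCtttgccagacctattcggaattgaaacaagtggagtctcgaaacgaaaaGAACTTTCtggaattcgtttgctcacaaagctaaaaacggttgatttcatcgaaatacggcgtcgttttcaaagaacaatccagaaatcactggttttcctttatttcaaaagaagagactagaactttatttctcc
HSP70, chr3:3993793-3994042, minus strand: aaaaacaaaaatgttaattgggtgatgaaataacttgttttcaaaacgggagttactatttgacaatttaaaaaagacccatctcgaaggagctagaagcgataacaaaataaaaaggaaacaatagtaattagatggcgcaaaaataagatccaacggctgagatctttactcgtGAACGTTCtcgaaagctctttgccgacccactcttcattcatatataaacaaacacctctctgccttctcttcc
In AT4G27090 and RPS8A, 2 site II matches and 1 telo box lie within 94 bases of the gene start. Among 31 listed ribosomal protein genes, 24 windows (77.4%) held a site II match, against 14.7% of all 26713 windows, and 15 (48.4%) held a telo box, against 6.31%. The I-box was in 17 of 28 windows (60.7%) of photosystem and electron transport genes and in 7 of 20 (35%) of light-harvesting genes, against 12.8% of all. The G-box (CACGTG) was in 12 of those 28 windows (42.9%) and 6 of those 20 (30%), against 7.73% of all. The short heat shock element was in 7 of 10 windows of the listed heat shock genes (70%) and in 9.76% of all. These are matches of letters in a window and no measure of binding.

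The seedling transcriptome was broad. Of 28642 genes listed, 18819 had at least 1 exon read in all 3 libraries, 2660 in 1 or 2 of them, and 7163 in none. Among the 27328 genes with an exon length, 58 genes made up 10% of the summed TPM, 255 made up 25%, 1150 made up 50% and 8381 made up 90%. A mean above 1000 TPM was reached by 76 genes, above 100 TPM by 2015 and above 10 TPM by 12845, and the median of the genes seen in all 3 libraries was 18.8 TPM.

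Photosynthesis, translation, stress-protective small proteins and cell wall proteins supplied the most abundant transcripts. After LHCB1.3 came SAG21 (AT4G02380), a small protein of the late-embryogenesis-abundant type, at 4635, 4574 and 6429 TPM. GRP3S, a short glycine-rich cell wall protein, had 3950, 3117 and 2965 TPM, and RBCS1A, the main small subunit of Rubisco, had 3719, 2904 and 2825 TPM. SAG21 was highest in replicate 3, whereas GRP3S and RBCS1A were highest in replicate 1. PSBR, a subunit of photosystem II, followed at 3005, 2662 and 3352 TPM, and TCTP, the translationally controlled tumour protein that promotes growth, at 2247, 2114 and 2935 TPM. Both were lowest in replicate 2 and highest in replicate 3.

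The other genes among the 30 highest lay between means of 1435 and 2140 TPM and covered a wide range of functions. Protective proteins in this range were HSC70-1, the constitutive cytosolic HSP70 chaperone (mean 2140 TPM), the dehydrins COR47 (2013 TPM) and AT1G54410 (1934 TPM), and a defensin-like protein, AT3G05730 (2014 TPM). The cell wall and secreted proteins were represented by EXT3, an extensin that cross-links the wall (1735 TPM), by GRP-3 (1645 TPM) and by AT2G45180, of the lipid transfer family (1974 TPM). GASA1, a gibberellin-regulated cysteine-rich peptide, had a mean of 1568 TPM. Translation supplied EF1A-A4, elongation factor 1-alpha (1703 TPM), the ribosomal protein genes AT4G27090, emb2386 and RPS8A (1542, 1520 and 1473 TPM), UBQ1, which encodes ubiquitin fused to a ribosomal protein (1474 TPM), AT3G49910, annotated as a translation protein (1464 TPM), and AT5G54940, an initiation factor (1455 TPM). AT5G03545, annotated as expressed in response to phosphate starvation, had a mean of 1512 TPM, and GRP7, a clock-controlled RNA-binding protein, one of 1521 TPM. AAC1, the mitochondrial ADP/ATP carrier, closed the list at 1435 TPM. TRX3, a cytosolic thioredoxin, was the steadiest of them, with 1833, 1827 and 1796 TPM.

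**Figure D1:**
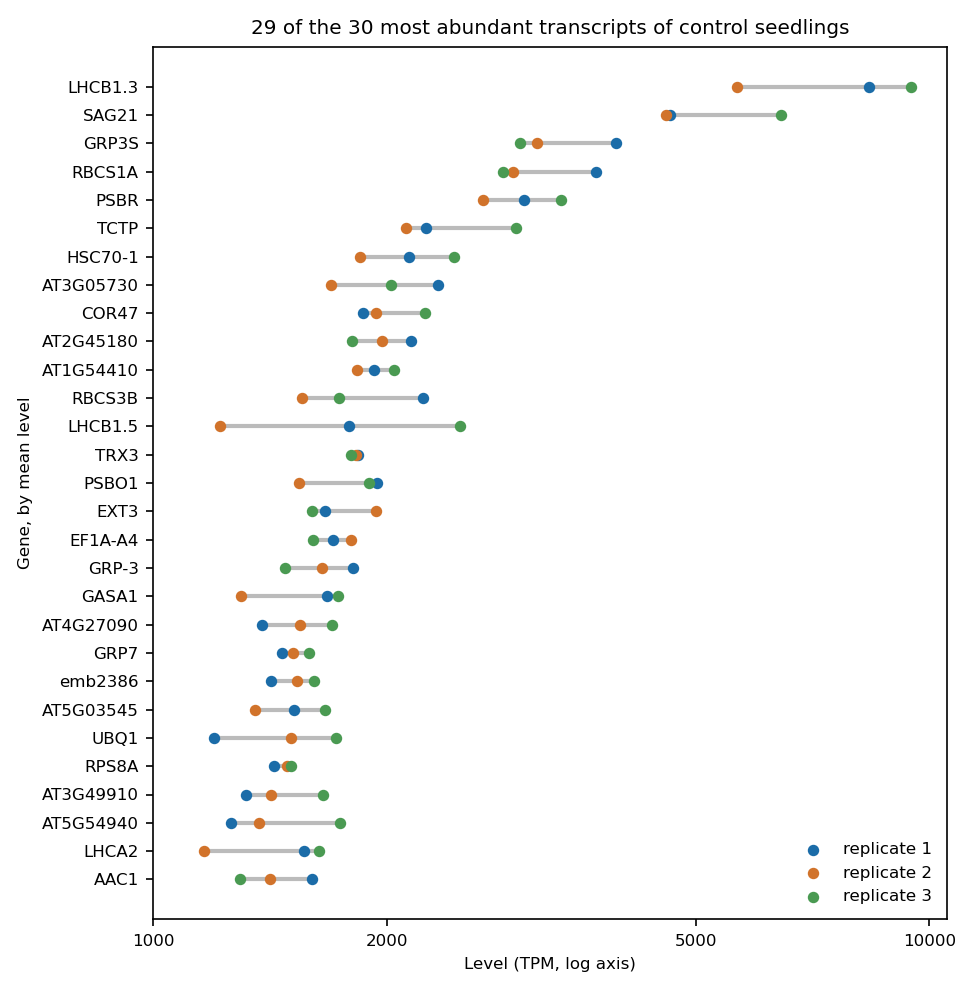
The level in TPM (log axis) of 29 of the 30 genes with the highest mean, one point per control library and a grey line from the lowest to the highest library. LHCB1.3 lies between 5643 and 9479 TPM, above every other gene except that SAG21 in replicate 3 (6429 TPM) exceeds LHCB1.3 in replicate 2, and TRX3 shows the closest 3 points.

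By RefSeq product name, transcripts for ribosomal proteins were the largest named class, with 11.7%, 13.0% and 12.9% of the summed TPM from 384 genes (mean 12.5% ± 0.75, SD, n = 3). Light reactions and Rubisco held 4.96%, 3.77% and 4.92% from 69 nuclear genes. Cell wall proteins held 2.92%, 2.71% and 2.58% from 602 genes, and dehydrins and late embryogenesis proteins 1.41%, 1.46% and 1.75% from 105 genes. The ribosomal class was lowest in replicate 1, the photosynthetic class in replicate 2 and the cell wall class in replicate 3. These classes rest on words in product names, which were chosen after the top genes had been seen, and genes under other names were missed. Others were taken in by their names: the ribosomal class includes the elongation factors LOS1 and eEF-1Bb1 (means 551 and 1108 TPM).

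**Figure D2:**
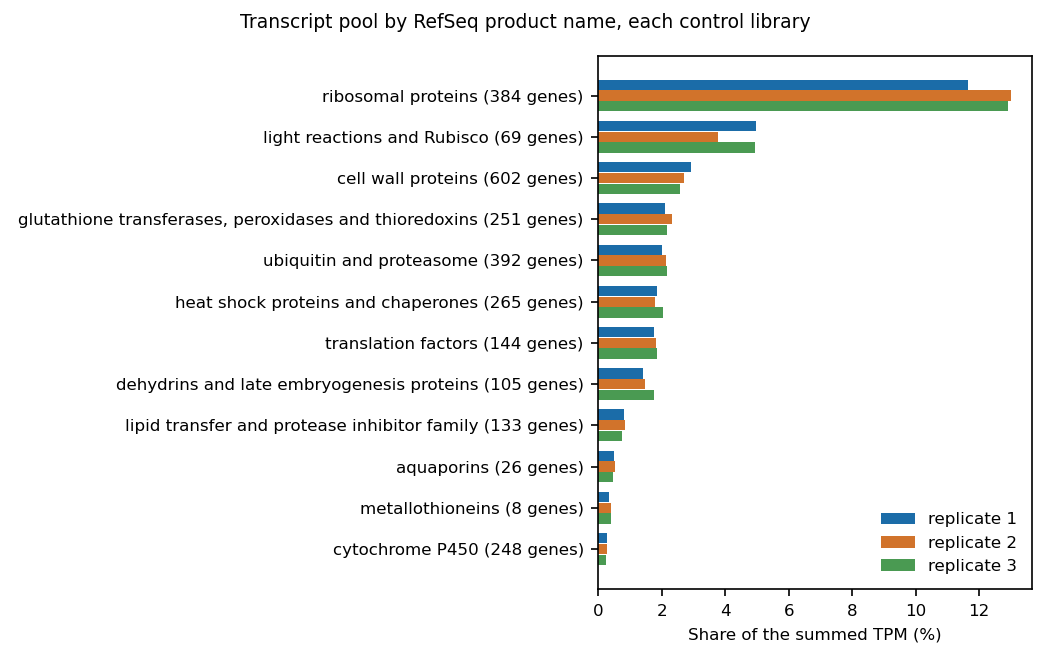
Share of the summed TPM (%) of 12 classes of product name, one bar per control library. Ribosomal proteins stand at 11.7% to 13.0%, and light reactions and Rubisco are lower in replicate 2 (3.77%) than in replicates 1 and 3.

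Within photosynthesis, the antenna and photosystem lists, with more members, held a larger share of the summed TPM than the lists of carbon fixation, while per gene the Rubisco small subunit and activase list had the highest median (926 TPM, against 484 TPM for light-harvesting, 677 TPM for photosystem and 268 TPM for Calvin-Benson genes). The 5 gene lists of photosynthesis, with 79 members, together held 5.69%, 4.43% and 5.53% of the summed TPM (mean 5.22% ± 0.69, SD, n = 3). The light-harvesting complex list (20 genes) held 2.08%, 1.41% and 2.31%. Photosystem and electron transport genes (28 genes) held 2.22%, 1.88% and 2.13%. Rubisco small subunits and activase (5 genes) held 0.782%, 0.601% and 0.587%, the Calvin-Benson cycle (13 genes) 0.325%, 0.275% and 0.258%, and photorespiration (13 genes) 0.282%, 0.264% and 0.244%. The last 3 lists were highest in replicate 1 and lowest in replicate 3, unlike the first 2 lists, which were lowest in replicate 2. By member, 10 of 13 Calvin-Benson genes were highest in replicate 1, where 33.0% of all genes tested were highest.

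Among the antenna genes the members of one complex differed widely in level. LHCB1.5 had 1787, 1220 and 2487 TPM, LHCB1.2 had 1192, 580 and 1256 TPM, and LHCB1.1 535, 233 and 393 TPM. All were lowest in replicate 2. LHCB2.1 and LHCB2.2, of the other main trimer subunit, had 200, 119 and 148 TPM and 157, 98.1 and 113 TPM. Of their 50-base words 69.3% and 68.1% are unique, and dividing by these shares would give means of 225 and 180 TPM. For photosystem I, LHCA2 had 1564, 1161 and 1635 TPM and LHCA1 1189, 964 and 1475 TPM, while the minor antenna proteins LHCA6 and LHCB4.3 stayed under 12 TPM in every library. LHCB1.1, LHCB2.1, LHCB2.2 and the 2 minor genes lie outside the rule for named genes and were chosen after their values were seen. Dividing LHCB1.3 by its share of unique 50-base words would give a mean of 9806 TPM in place of 7825 TPM.

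Photosystem and electron transport genes ranged from means of 66.9 TPM to 3006 TPM, with a median of 677 TPM. DRT112, a plastocyanin, had 1523, 1184 and 1415 TPM, PSBO1, of the oxygen-evolving complex, 1945, 1539 and 1894 TPM, and PSAF, of photosystem I, 1185, 954 and 1169 TPM. Each was lowest in replicate 2. In carbon fixation RBCS3B had 2225, 1553 and 1735 TPM, RCA, the Rubisco activase, 1156, 836 and 787 TPM, and GAPA, the chloroplast glyceraldehyde-3-phosphate dehydrogenase, 438, 332 and 370 TPM. RBCS1B had 141, 170 and 59.7 TPM, which is a small fraction of RBCS1A in every library. The coding sequence of RBCS1B is 97.25% identical to that of RBCS2B and shares 212 bases in a row with RBCS3B. For RBCS1A 100% of the 50-base words are unique. Reads that fit several genes are left out, which can lower RBCS1B more than RBCS1A. Of photorespiration genes, SHM1, the mitochondrial serine hydroxymethyltransferase, was highest, with 693, 640 and 518 TPM. PGLP1, the 2-phosphoglycolate phosphatase, had 0 reads in all 3 libraries, and its coding sequence of 1089 bases is identical to that of AT5G36790, so that 0% of its 50-base words are unique. Genome-wide, 648 of 27918 genes had no unique word, and 616 of these had 0 reads.

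Translation transcripts varied less. The 31 listed cytosolic ribosomal protein genes held 2.07%, 2.29% and 2.25% of the summed TPM (mean 2.205% ± 0.12, SD, n = 3), with a median of 771 TPM. Their levels were unequal within duplicated pairs: RPL10A and RPL10C had 926, 1044 and 886 TPM and 824, 974 and 997 TPM, but RPL10B, chosen after its values were seen, 61.5, 67.2 and 37.8 TPM. Metallothioneins, small metal-binding proteins, were abundant for 4 genes: MT3 had 1278, 1378 and 1499 TPM, MT2A 883, 1315 and 1181 TPM, MT2B 850, 710 and 696 TPM and MT1C 373, 528 and 453 TPM. MT1A had 0 reads, from 138 bases of listed exon. Aquaporins, which move water across membranes, were led by TIP2 (1312, 1267 and 1069 TPM) and GAMMA-TIP (627, 711 and 614 TPM).

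Markers of both shoot and root were present, as in whole seedlings. Root endodermis markers included CASP1, which organises the Casparian strip, at 100, 127 and 57.6 TPM and CYP86A1, a suberin-forming fatty acid hydroxylase, at 43.2, 73.5 and 38.4 TPM. Root hair markers included PRP3, a proline-rich wall protein, at 117, 161 and 99.5 TPM. Both root lists were highest in replicate 2 and lowest in replicate 3. Shoot epidermis was represented by LTP1, a lipid transfer protein (816, 600 and 843 TPM), and KCS6, an enzyme of wax synthesis (312, 214 and 281 TPM), guard cells by MYB60 (37.9, 37.2 and 39.9 TPM), phloem by PP2-A1 (111, 99.1 and 134 TPM) and xylem by XCP2, a cysteine protease (45.7, 28.7 and 37.9 TPM). The markers named so far are among the highest of their lists. List medians were 15.9 TPM for root endodermis, 15.1 TPM for root hair, 31.8 TPM for shoot epidermis and 24.8 TPM for phloem. They were 5.95 TPM for guard cell, 7.05 TPM for xylem and 3.40 TPM for root tip markers. The lowest member means were 0.144 TPM for endodermis, 0.565 TPM for guard cell and 0.256 TPM for xylem. Root tip members included WOX5 of the root stem cell niche (5.37, 3.69 and 9.39 TPM) and SMB of the root cap (4.31, 5.82 and 3.03 TPM). In these whole-seedling libraries fewer cells of a type and less RNA per cell cannot be told apart.

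Seed and flower programmes were near the floor. Of 16 seed storage and embryo genes 5 had 0 reads in all 3 libraries (CRB, LEC1, OLEO1, OLEO2 and SESA1), and the summed level of the list was 3.40, 3.75 and 18.8 TPM. Of 11 floral organ and pollen genes 4 had 0 reads (VGD1, PPME1, MS1 and A9). SEP3, a MADS-box factor of floral organ identity, was the member above the floor, with 6.8, 6.0 and 14 TPM. In a separate list of 6 shoot meristem and leaf primordium markers, the stem cell gene WUS had 0 reads, and CLV3 had 0, 1.06 and 0 TPM. The other 4 had reads in all 3 libraries, among them STM (mean 1.87 TPM), AFO (38.4 TPM) and AS1 (23.9 TPM). The summed level of that list was 72.8, 60.4 and 81.0 TPM. Genes at 0 are limited by the floor of 3 reads given above, and 1 library at 2.3 CPM sets the weakest limit.

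Nutrient and metabolic states were described from listed genes. Transcripts of nitrate assimilation were abundant, with NIA2, a nitrate reductase, at 1049, 851 and 985 TPM and NIR1, the nitrite reductase, at 725, 603 and 552 TPM. The nitrogen uptake and assimilation list had a median of 136 TPM and a lowest member mean of 0.663 TPM. FSD1, the iron superoxide dismutase, had 1131, 1059 and 1076 TPM. The iron-deficiency transporter gene IRT1, chosen after its values were seen, had 0.755, 0.187 and 1.36 TPM. SPX1, a phosphate-starvation reporter, had 88.4, 168 and 75.01 TPM and the highest mean of the phosphate, sulfate and potassium list, whose median was 31.2 TPM. Of glucosinolate genes TGG1, a myrosinase of guard cells and phloem idioblasts, led with 604, 482 and 571 TPM, and of flavonoid genes TT4, chalcone synthase, had 34.2, 22.4 and 22.3 TPM, while the anthocyanin regulator PAP1 had 0 reads. Among low-oxygen hallmark genes ADH1, alcohol dehydrogenase, had 369, 572 and 282 TPM and HB1, a haemoglobin, 331, 476 and 371 TPM. These were high for their list of 12 genes, whose median was 55.3 TPM and lowest member mean 9.47 TPM. Clock genes active at opposite times of day were both present, with CCA1 at 27.98, 25.95 and 25.74 TPM and TOC1 at 40.9, 54.9 and 52.8 TPM.

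The group includes genes of fatty acyl-CoA binding, which the series concerns. ACBP6, the small cytosolic acyl-CoA-binding protein, had 1313, 1169 and 1528 TPM and stood far above ACBP3 (49.9, 61.5 and 68.1 TPM) and ACBP4 (51.5, 42.2 and 41.4 TPM). The constitutive group VII ethylene response factors, which activate low-oxygen genes, reached 491, 734 and 588 TPM for RAP2.3, 415, 403 and 415 TPM for RAP2.2 and 188, 173 and 183 TPM for RAP2.12. RAP2.3 was highest in replicate 2, while RAP2.2 and RAP2.12 had almost the same level in each pool.

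The 3 replicates differed by more than counting error at many genes. Each gene's reads were compared with one common proportion of the TMM-scaled library sizes by a chi-square test with 2 degrees of freedom, where at least 5 reads were expected in every library, and 5282 of 16454 genes (32.1%) had a Benjamini-Hochberg adjusted p below 0.05. Among genes with at least 100 reads in every library 1716 of 3004 did (57.1%). The spread was small for most of them: the coefficient of variation (CV, the SD over the mean of TMM-scaled CPM) had a median of 10.7% over these 3004 genes, an interquartile range of 6.77% to 15.7%, and exceeded 40% for 28 genes. The biological coefficient of variation estimated by edgeR was 0.160 over 16676 genes, 0.230 at 10 CPM and 0.137 at 100 CPM. Without replicate 1 the count of varying genes was 1946 and without replicate 2 it was 2223, against 4182 without the shallow replicate 3, so it depends on which libraries and how many reads are compared. The labels name these samples replicates of 1 group, each a separate pool of plants. The chi-square test took each counted read as independent, and whether both mates of some pairs were counted is not known.

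**Figure D3:**
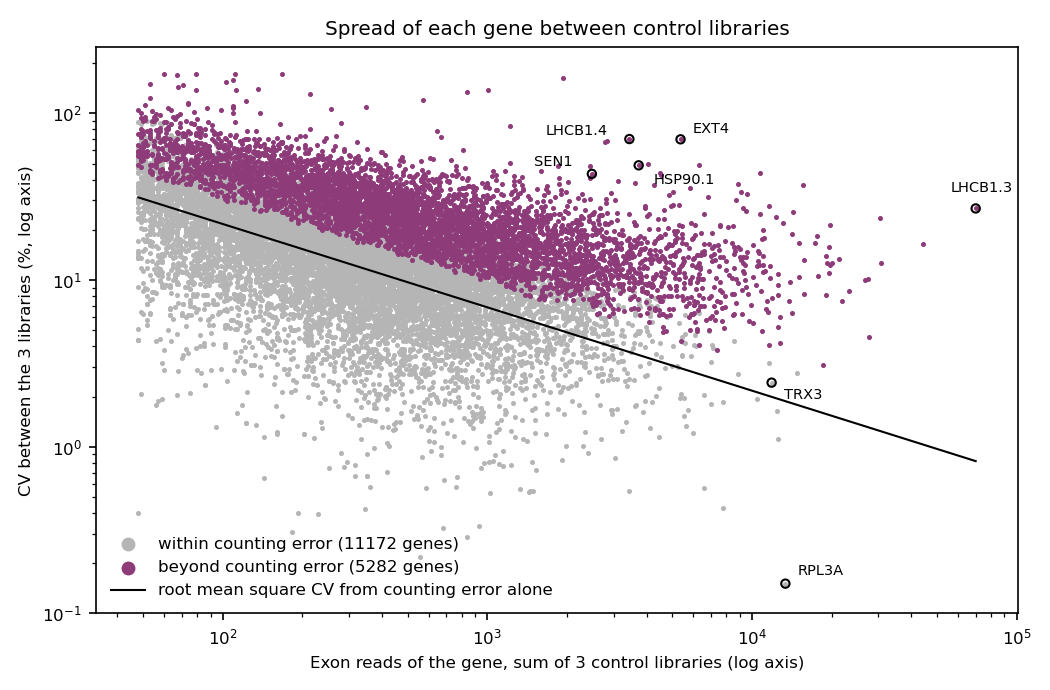
CV between the 3 control libraries (%, log axis) against the summed exon reads of each of 16454 genes (log axis), purple where the spread exceeded counting error (5282 genes) and grey where it did not. The line is the root mean square CV that counting error alone gives. LHCB1.3 (26.9%), LHCB1.4 (70.1%), EXT4 (69.8%) and HSP90.1 (48.8%) lie well above the line, and TRX3 (2.42%) lies close to it.

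Among well-measured genes, the largest spread belonged to an antenna gene, to wall and detoxification genes and to heat-inducible chaperones. LHCB1.4 had 434, 182 and 822 TPM, a 4.69-fold range by TMM-scaled CPM. EXT4, an extensin, had 319, 878 and 262 TPM, and the glutathione transferase genes GSTF7 and GSTF6 had 187, 566 and 195 TPM and 258, 631 and 314 TPM. In these 3 genes replicate 2 stood above both others. AT5G64120, a peroxidase, had 127, 401 and 147 TPM, and EARLI1, a lipid transfer family protein, 599, 1221 and 514 TPM, again with replicate 2 apart. ADC2, the arginine decarboxylase of polyamine synthesis, went the other way, with 493, 242 and 611 TPM, as did XTH15, a wall-loosening xyloglucan enzyme, with 303, 147 and 409 TPM, and IAA28, an auxin response repressor, with 104, 63.7 and 149 TPM. UGT84A3, a glycosyltransferase, and AT1G66180, an aspartyl protease, were also lowest in replicate 2 and highest in replicate 3, at 46.9, 35.3 and 100 TPM and 321, 234 and 510 TPM. Of the 20 genes with the largest CV, AT4G32020 was the one highest in replicate 1, with 231, 145 and 90.09 TPM.

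A set of genes outside that ranking was far higher in replicate 2 than in the other pools. With a rule added after the values were seen (CV above 75% and at least 150 reads in sum), 13 genes were found, of which 12 were highest in replicate 2 and 1 in replicate 3. The minimum counts raw reads, so a gene high only in the shallow replicate 3 passes less easily than one high only in replicate 2. AT4G12500, for example, passed through replicate 2 alone, with 1, 166 and 0 reads. The split of 12 and 1 therefore does not compare the libraries. AT4G12490, a lipid transfer family gene, had 8.54, 665 and 19.2 TPM from 30, 1889 and 15 reads. AT2G43620, a chitinase, had 13.6, 131 and 19.4 TPM, AT1G26380, a berberine-bridge type oxidase, 1.75, 29.6 and 3.93 TPM, and PRXCB, a cell wall peroxidase, 52.4, 180 and 41.1 TPM. Chitinases and such peroxidases are known as parts of plant defence. PR1, the marker of salicylate-dependent defence, had 2.36, 36.7 and 0 TPM, and FRK1, a receptor kinase induced by microbial patterns, 1.24, 7.07 and 1.12 TPM. PR4, by contrast, had 225, 242 and 225 TPM, and PDF1.2, PDF1.2b and THI2.1, markers of jasmonate-dependent defence, had 0 reads. All 4 tested members of the defence list were highest in replicate 2, where 31.2% of all genes tested were highest. Testing needed at least 5 reads expected in every library, worked out from the summed reads. PR1 and FRK1 had most of their reads in replicate 2 and were tested because of them. The count of 4 therefore cannot be weighed against that share. Over all genes tested, replicate 2 was more than 2-fold above both others, beyond counting error, at 115 genes, replicate 1 at 64 and replicate 3 at 102. Replicate 3 was more than 2-fold below both others, beyond counting error, at 268 genes, replicate 2 at 127 and replicate 1 at 62.

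Heat-inducible genes set replicate 3 apart. MBF1C, a transcriptional coactivator of heat tolerance, had 237, 256.1 and 501 TPM, HSP70 197, 197 and 375 TPM, and HSP90.1 143, 156 and 308 TPM. The small heat shock protein HSP17.8 had 28.0, 29.8 and 111 TPM. All 6 tested members of the heat shock list were highest in replicate 3, where 35.7% of all genes tested were highest, and all 6 varied beyond counting error, against 32.1% of all genes tested. AT2G19310 and AT5G48570, a small heat shock type chaperone and an FKBP-type isomerase, were also highest in replicate 3 and had 237, 290 and 505 TPM and 59.8, 51.5 and 118 TPM. The window of HSP90.1 shown above holds 2 short heat shock elements and that of HSP70 holds 1. HSC70-1, the constitutive relative, moved less, with 2133, 1845 and 2443 TPM. Replicate 3 is also the shallowest library, and the part of depth or lane in these differences was not tested.

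Gene lists differed between replicates as groups. Of the 20 light-harvesting genes 19 were lowest in replicate 2, where 30.4% of all genes tested were lowest, and so were 22 of 28 photosystem genes, 12 of 13 cell division genes, all 6 tested xylem markers and 17 of 23 tested glucosinolate genes. Beyond counting error were 17 of the 20, 21 of the 28, 7 of the 13, 5 of the 6 and 15 of the 23, against 32.1% of all genes tested and 57.1% of those with at least 100 reads in every library. In cell division, KN, the cytokinesis syntaxin, had 38.2, 16.9 and 27.0 TPM, and TSO2, a ribonucleotide reductase subunit, 43.4, 26.6 and 48.7 TPM. Root endodermis markers were highest in replicate 2 for 9 of 10 tested genes and low-oxygen genes for 9 of 12, where 31.2% of all genes tested were highest. Lowest in replicate 3 were 8 of the 10 endodermis and 6 of 7 root hair markers, where 39.6% of all genes tested were lowest. Carbon starvation genes were lowest in replicate 1 for all 4 tested, where 30% of all genes tested were lowest, with SEN1, a gene induced in darkness, at 171, 420 and 280 TPM and DIN10 at 340, 566 and 386 TPM. Members of a list share their libraries, so these counts describe 3 pools and not independent events.

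**Figure D4:**
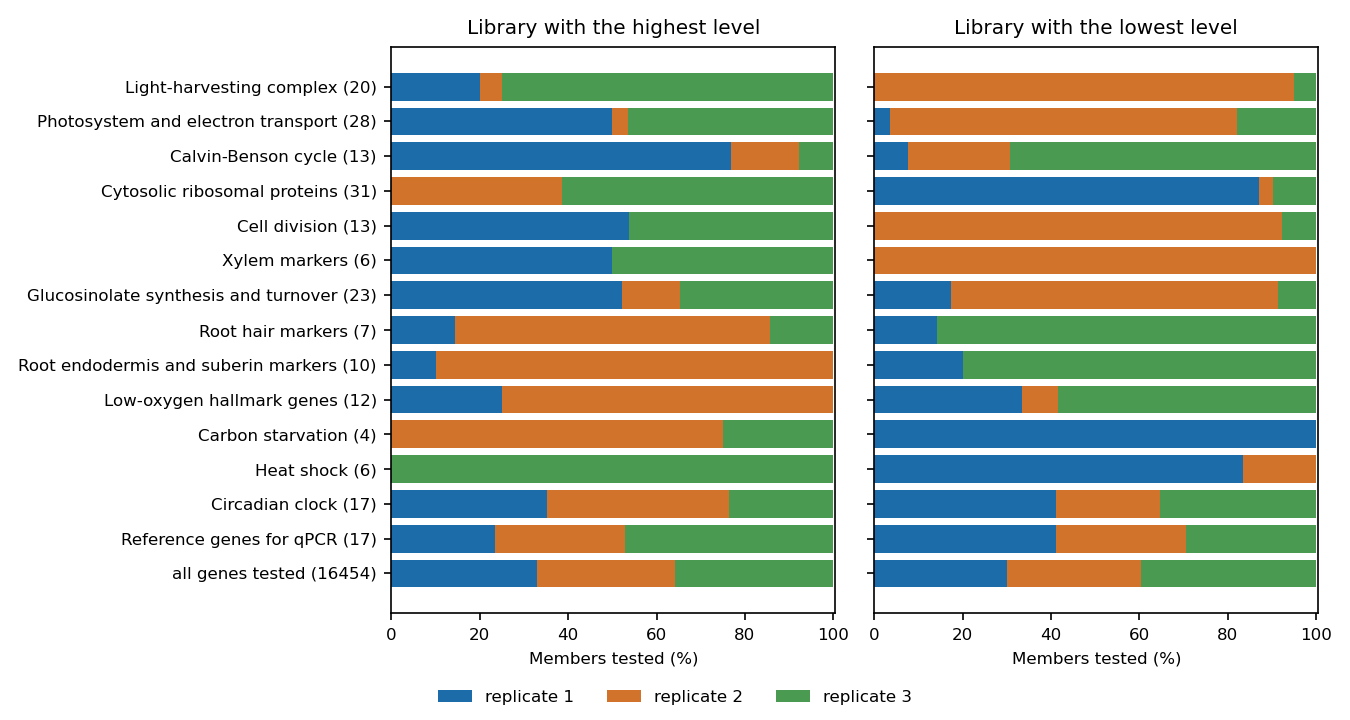
For 14 gene lists and for all 16454 genes tested, the percentage of tested members whose highest (left) or lowest (right) TMM-scaled CPM fell in replicate 1, 2 or 3, with the number tested in brackets. Light-harvesting genes were lowest in replicate 2 for 19 of 20 and heat shock genes highest in replicate 3 for 6 of 6, while of all genes 39.6% were lowest in replicate 3.

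Ribosomal protein genes were lowest in replicate 1 for 27 of 31 listed genes, against the 30% of all genes tested. Of the 31 genes 26 varied beyond counting error, against 32.1% of all genes tested and 57.1% of those with at least 100 reads in every library, and the median CV of the list was 8.58%. RPL18AB had 954, 1191 and 1102 TPM. Ribosomal protein genes are short, with a median exon length of 972 bases in the list, and the libraries differed by gene length. In the shortest sixth of the tested genes, with a median exon length of 761 bases, the median log2 ratio of replicate 1 over replicate 2 was -0.12 and of replicate 1 over replicate 3 -0.18. In the longest sixth, with a median of 3142 bases, these medians were 0.10 and 0.20. The part of length in the ribosomal difference was not tested.

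**Figure D5:**
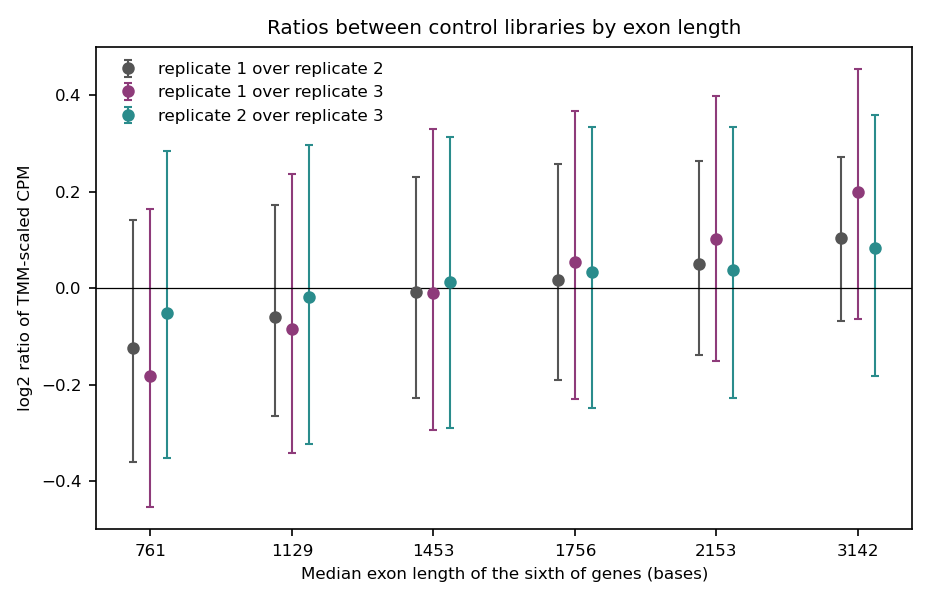
Median log2 ratio of TMM-scaled CPM between pairs of control libraries in 6 equal groups of genes by exon length, with the interquartile range as bars. For replicate 1 over replicate 3 the median goes from -0.18 in the shortest group to 0.20 in the longest, and replicate 2 over replicate 3 shows the smallest trend.

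The genes with the smallest CV had varied functions. RPL3A, a ribosomal protein, had the smallest CV of the 3004 genes, 0.151% by TMM-scaled CPM, with 953, 922 and 890 TPM. Its spread was within counting error, so among 3004 genes this value cannot be told apart from a low draw of counting error. SAM1, an S-adenosylmethionine synthetase, had 568, 550 and 533 TPM, and EDA9, a phosphoglycerate dehydrogenase of serine synthesis, 184, 180 and 172 TPM. Others among the 10 smallest were ERF1-1, a translation release factor, PSRP2, a plastid RNA-binding protein, VIP4, of the Paf1 transcription complex, and UBQ11, a polyubiquitin. AT2G16940, a splicing factor, and AT3G08930, an LMBR1-like membrane protein, were also among them. Of 17 genes commonly used as references in quantitative PCR 9 varied beyond counting error, against 32.1% of all genes tested and 57.1% of those with at least 100 reads in every library, and their median CV was 10.3%. ACT2, an actin, had 424, 422 and 429 TPM and did not, UBQ10 had 1071, 1212 and 1141 TPM and did, and GAPC2, the cytosolic glyceraldehyde-3-phosphate dehydrogenase, had 1412, 1365 and 1089.6 TPM and did.

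Reads in introns were few. Of exon plus intron reads 2.29%, 1.93% and 1.75% lay in introns in replicates 1, 2 and 3 (95% Wilson intervals 2.28 to 2.303%, 1.92 to 1.95% and 1.73 to 1.78%, counting error only). These shares count the reads of genes listed with no exon as intron reads, and without those genes they were 2.02%, 1.68% and 1.47%. Over 3052 genes with at least 100 exon plus intron reads in every library the median gene had 0.631% in introns, 34 genes exceeded 10% and 2 exceeded 50%. AT1G73885, annotated as an AT-rich interactive domain protein, had 62.9%, 58.1% and 54.8% of its reads in introns, and HRGP1, a hydroxyproline-rich wall protein, 31.2%, 42.6% and 49.3%. HSFA7A, a heat shock transcription factor, had 19.8%, 24.4% and 14.4%. AT2G01021, an uncharacterised gene, had 98.5%, 99.6% and 98.4% of its reads counted as intron reads, with 4, 1 and 2 exon reads. Its listed exon of 102 bases fills its whole listed span (chr2:6571-6672), so no listed intron holds these reads. Of its 50-base words 0% are unique in the genome, and the source of these reads was not tested. For the other genes, unspliced RNA, retained introns and transcripts missing from the annotation cannot be told apart in these counts.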

How the data were processed

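RNA of whole seedlings had been made into stranded poly(A) libraries and sequenced in paired reads of 50 bases, per the labels' protocols. The deposited table gives read counts per gene (total exon, intron and exon-exon reads) and the exon length, per the file headers, and the reads were mapped to TAIR10, per the submitters' processing notes. Neither the aligner nor the release of gene models nor whether strand was used when reads were counted is given in the sources used here, so overlapping and antisense genes are uncertain. Exon counts above 50 were odd in 50.5% of cases, so reads were not always counted as whole pairs of mates. Whether both mates of some pairs were counted cannot be told from this share. If they were, the chi-square test would understate counting error. The deposited starts count from 0 and were moved by 1.

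TPM was computed from exon counts and exon length, and 1 line that named no gene and held no count was left out. CPM used TMM sizes from edgeR 4.0.16 in R 4.3.3. The chi-square test and Benjamini-Hochberg adjustment used scipy 1.17.1. On data simulated with counting error alone for this comparison 0 of 16462 genes were called. Dispersion was estimated by edgeR with only an intercept after filterByExpr, with DESeq2 1.42.0 as an alternative. The share of unique 50-base words was counted on RefSeq exons of TAIR10.1. For coordinates, 6035 of 27997 genes have the same start and end in both annotations, spread along all 5 chromosomes. RefSeq names matched 28009 genes.

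Genes were named by rule: the 30 highest mean TPM, the 6 highest members of each of 34 lists and members with no read, the 20 largest and 10 smallest CV among genes with at least 100 reads in every library, and the 10 highest intron shares among genes with at least 100 exon plus intron reads in every library and an exon read in each. Members and lists were chosen with earlier results of these data known. Protein sequences were not used here. Motifs were chosen with the data known, and the heat shock element was searched in a short form that replaced a longer one whose matches had been seen. Of the 30 highest genes 1 is not reported here.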

Additional observations from a re-analysis of the deposited data

Results flagged for a closer look

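Outside the exon counts, 33514 reads (17087, 12663 and 3764 in replicates 1, 2 and 3) were assigned to genes that the table lists with no exon, which the levels above leave out and the intron shares count as intron reads. This is a signal outside the exon counts, and with no other control it stands above the 3 reads that a count of 0 allows. Of 1314 such genes 344 had reads. The largest were AT3G41768, the 18S ribosomal RNA, with 2304, 2183 and 793 reads, and GUT15 (AT2G18440), a non-coding RNA, with 1532, 1243 and 281 reads. Genes annotated as ribosomal RNA in RefSeq had 2513, 2377 and 868 reads in these poly(A) libraries, and transfer RNA genes 5, 5 and 3. The 24 genes with no RefSeq match, among them the mitochondrial ATMG00020 and ATMG01390, had 1265, 1250 and 464 reads. Without a RefSeq annotation they were counted in neither class, so the ribosomal RNA reads given here could be too few.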

How the results depend on the processing

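The genes detected numbered 18903 to 20142 without 1 library and 17412 to 19219 under the other definitions, against 18819. The genes holding 50% of the summed TPM numbered 1117 to 1194 without 1 library, against 1150. They numbered 1644 in CPM and 1126 to 1150 under the other settings. The intron share was 1.84% to 2.11% without 1 library and 1.73% to 1.83% otherwise, against 1.99%. In CPM in place of TPM the ribosomal list held 1.70% and the photosynthesis lists 4.28%, and with exon plus intron reads over gene length 2.02% and 6.10%. The varying genes numbered 1946 to 4182 without 1 library and 1907 when thinned to the shallowest library, where fewer reads were compared. The biological coefficient of variation was 0.156 to 0.162 without 1 library, 0.171 with no filter and 0.210 from DESeq2 dispersions, and the cause was not tested. Of 253 named genes with reads, none moved by more than the spread between replicates under another scaling, and 41 did with exon length less 150 bases. Dividing by the unique 50-base share (added after the data were seen, as was leaving out genes without exons) moved 13. No paired analysis was possible because there is only 1 group. Depth limits replicate 3 most, and with 3 libraries, each in its own lane, no value separates pool from lane. TPM shares are relative, so a high share of one class lowers the others.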
